A study of Homo sapiens with 9 samples.

Results

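Melanocyte lineage and pigmentation genes are described here in MP41, a uveal melanoma cell line, after transfection of a synthetic miR-16. A list of 10 genes was followed: the transcription factors MITF and SOX10, the tyrosinase family TYR, TYRP1 and DCT, the melanosome maturation proteins PMEL and MLANA, and the membrane proteins GPR143, OCA2 and TRPM1. They were found by symbol in the table of 14839 genes, which held values for 9 of the 10, and no row carried the symbol OCA2. The measurement was polyA RNA-seq of 9 libraries, 1 per condition. One library came from cells before transfection (0 h), 4 libraries from cells given miR-16 and 4 from cells given a control mimic (miR-CTR), at 6, 12, 24 and 48 h. Both mimics were used at 66 nM with a lipid reagent, and the 0 h library carries the control mimic's name in the labels although it was taken before transfection. MP41 is 1 established line with a GNA11 mutation, so every library shares that genotype and no second line was sequenced.

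Pigment is made in melanosomes, organelles of the melanocyte that derive from the endosomal pathway. PMEL is cleaved into fibrils on which melanin is laid down, and MLANA takes part in that maturation. Tyrosinase (TYR) starts the synthesis from tyrosine, DCT converts dopachrome, and TYRP1 works late in the eumelanin branch. SOX10, a neural crest factor, activates MITF, and MITF binds short E-box and M-box motifs in front of pigmentation genes.

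Values are log2(normalized reads + 1) as deposited, and the depth was 20270000 to 27360000 reads per library. A difference is in log2 units, and its error (SE) or 95% interval covers the counting of reads and the rounding of the table only. With no replicate of any condition, the spread between cultures is unknown. No difference was tested, and the 4 times were not used as pairs, which would take the difference between the mimics as the same at each time. A difference over 0.5 in size is called past the threshold. The table names its time points by number, and they were matched to the hours of the labels by rising number, which no source spells out.

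The mature miR-16 and the control guide are shown because their seeds, bases 2 to 8 in capitals, set which 3′UTR letters were searched.
miR-16-5p: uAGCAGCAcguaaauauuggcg
control guide: uUGUACUAcacaaaaguacug
The miR-16 sequence is from RefSeq, where it lies in MIR16-1 at chr13:50049027-50049048 on the minus strand and in MIR16-2 at chr3:160404754-160404775 on the plus strand of GRCh38. The other guide is the second sequence of the study's list of biotinylated mimics, whose rows name the pair the other way round, so its use as miR-CTR in these libraries is assumed. Counted as a miR-16 site on the transcript strand of the longest annotated 3′UTR were TGCTGCTA, the 8mer, TGCTGCT, the 7mer-m8, and GCTGCTA, the 7mer-A1.

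None of the 9 genes with values held such a miR-16 site, against 29.2% of 11570 protein-coding genes of the table. Nor did any hold a match of the same kinds for the other guide, against 14.7% of those genes. The 3′UTRs searched ran from 109 bases in PMEL to 3090 in DCT. With the shorter 6mer (GCTGCT) counted too, SOX10, DCT and GPR143 had a match, 3 of 9 beside 46.8% of all genes. A string match is a description of these letters and says nothing of binding. Imperfect pairing outside these seed matches was not searched. The study's introduction cites TYRP1 mRNA, from earlier work, as an example of a sponge with several imperfect miRNA-binding sites.

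The promoters were searched on both strands for the E-boxes CATGTG and CACGTG, from 250 bases before to 50 after each RefSeq start in GRCh38. The promoter table held 12 windows of 8 of the genes, and SOX10 and PMEL were not in it. CATGTG stood in 7 of the 12 windows, of 6 genes, beside 11.1% of all 35116 windows of this length, and CACGTG in 0 of 12, beside 7.26%. The longer TCATGTG, the M-box core, which contains CATGTG, stood in 4 of the 12 windows, those of TYR, TYRP1, DCT and GPR143, and in 2.92% of all windows. No E-box was found in the 3 MITF windows or in that of MLANA. The stretches with the M-box core are shown on the gene's strand, because these genes share it but did not move alike in the libraries described next; capitals mark the 6 letters of the E-box, read as CACATG where it lies on the other strand.
TYR, chr11:89177759-89177788, plus strand: agaaaagtcagtCATGTGcttttcagagga
TYRP1, chr9:12693229-12693258, plus strand: ttggaagggaatCATGTGctgatcaagtcc
DCT, chr13:94479799-94479828, minus strand: tgcactttgggtCATGTGctaatgatgagg
DCT, chr13:94479880-94479909, minus strand: gtttggctggagCACATGagcccagataaa
GPR143, chrX:9765891-9765920, minus strand: agaggcccagggCACATGatgccgccccca
GPR143, chrX:9765863-9765892, minus strand: cagcccgcccagCACATGacccaggcaggc

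The pigmentation genes were abundant in MP41 before any mimic was added. Levels between genes are compared here as normalized reads per kb of annotated exons. TYRP1 was at 64480 per kb at 0 h, seventh of 12976 genes with a known length. PMEL followed at 25819, TYR at 11889, MLANA at 5351 and SOX10 at 2775 per kb. MITF was at 1385, GPR143 at 1283, DCT at 664 and TRPM1 at 96.3 per kb, and TRPM1 alone was below the middle of all genes. From TYRP1 down to MITF, each gene's lowest value over the 9 libraries was above the highest value of the next gene in the order. The ranges of MITF and GPR143 overlapped over the libraries, with MITF above in 9 of 9, and so did those of GPR143 and DCT, with GPR143 above in 6 of 9. At 48 h DCT had passed both MITF and GPR143 with each mimic. Together the 9 genes took 1.74 to 2.21% of the reads of a library.

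**Figure D1:**
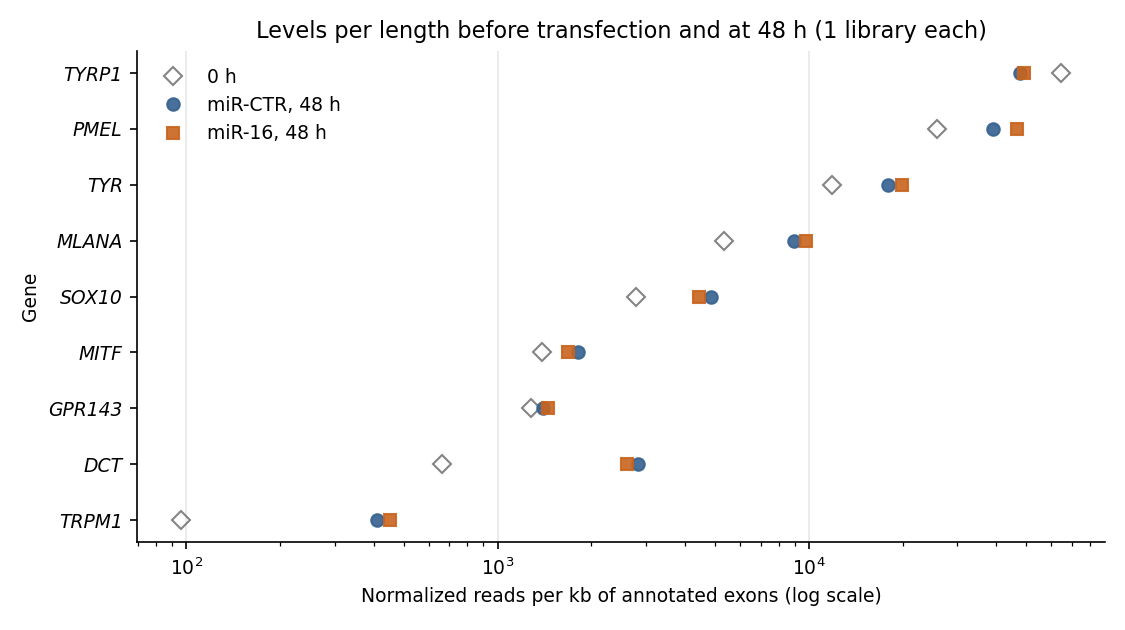
Normalized reads per kb of annotated exons (log axis) for the 9 genes, ordered by their level at 0 h; open diamonds are the 0 h library, circles miR-CTR at 48 h and squares miR-16 at 48 h, 1 library each. DCT and TRPM1 lie far to the right of their 0 h value at 48 h, TYRP1 lies to the left, and the 48 h points of each gene sit close together.

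Markers of other lineages were low. None of 4 endothelial and none of 4 epithelial markers had a row, and CD68 was the 1 of 5 immune markers present, at 43.0 to 57.1 normalized reads. The 4 fibroblast markers present of 7 summed to 499 to 778 normalized reads, against 399818 or more for the pigmentation genes. Of 5 retinal pigment epithelium markers, BEST1, RLBP1 and LRAT were present and RPE65 and TTR had no row. All 4 Schwann cell markers, a lineage that also uses SOX10, were present. Of the defining melanocyte genes, OCA2 alone had no row.

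The pigmentation genes lay close together with miR-16 and with the control mimic. Late after transfection, taken as the mean of 24 and 48 h, 0 of 9 genes passed 0.5 in either direction, while 13.5% of all genes did (7.76% up and 5.73% down). Their median late difference, miR-16 minus miR-CTR, was 0.05, with a range of -0.095 (DCT) to 0.19 (PMEL), beside 0.005 for all genes. Among the 25% of genes with the highest mean expression, 6.82% passed. Early, as the mean of 6 and 12 h, 0 of 9 passed, beside 3.48% of all genes, and their median was 0.015. Over the 36 pairs of a gene and a time, the largest difference was 0.25, and the median size was 0.065, against 0.15 for all genes and 0.11 for the 25% of highest expression. At this depth 26 of the 36 counting intervals left out 0, which with 1 library a condition does not show a difference between treatments.

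A set of genes that the study had named as miR-16 targets differed more in the same libraries. CCND1, CCND3, WEE1, AMOT, TACC1 and NRBP1, genes with a miR-16 seed match that were chosen with earlier results of these data known, had late differences of -0.63 to -1.26. All 6 were past the threshold downward. The study picked them in part by their fall in this same time course, so this is no independent check of the mimic.

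**Figure D2:**
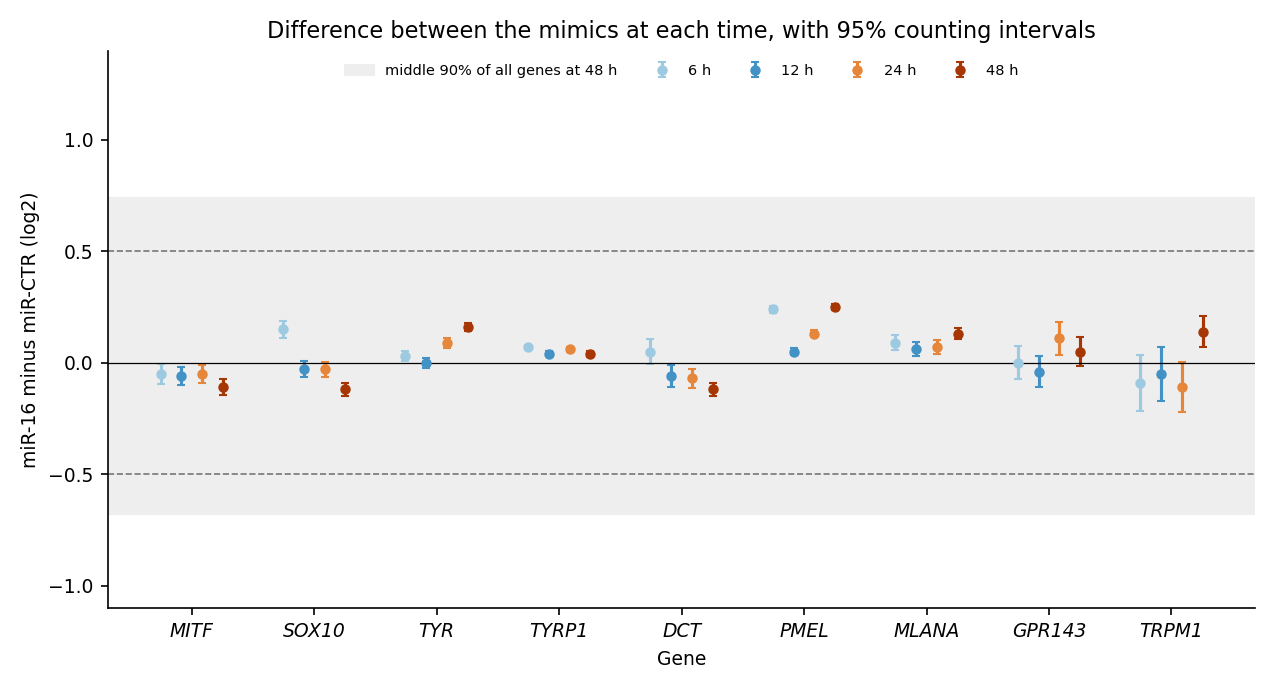
Difference of each gene at each time, miR-16 minus miR-CTR in log2 units, with 95% counting intervals; dashed lines mark the 0.5 threshold and the grey band holds the middle 90% of all genes at 48 h, -0.68 to 0.74. All 36 points lie between -0.12 and 0.25.

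The 2 transcription factors had small negative late differences. MITF (ENSG00000187098.15, chr3:69739435-69968337, plus strand) is the master regulator of the melanocyte lineage. Its value was 13.28 at 0 h, 13.20, 13.27, 13.40 and 13.67 with miR-CTR at 6, 12, 24 and 48 h, and 13.15, 13.21, 13.35 and 13.56 with miR-16. It was lower with miR-16 at 4 of 4 times, and both series were highest at 48 h. The late difference was -0.08 ± 0.01 (counting SE).

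SOX10 (ENSG00000100146.16, chr22:37970686-37987422, minus strand) was 13.33 at 0 h, 13.41, 13.57, 13.81 and 14.13 with miR-CTR and, in the same order, 13.56, 13.54, 13.78 and 14.01 in the miR-16 libraries. The 0 h library was the lowest of the 9, and the value was higher at each step with miR-CTR. SOX10 was higher with miR-16 at 6 h, by 0.15 ± 0.02, and lower at 48 h, at -0.12 ± 0.02. Its exons share 89 bases with POLR2F on the opposite strand, and the strand setting of the counting was not given in the sources used here.

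The tyrosinase family moved in different directions with time. TYR (ENSG00000077498.8, chr11:89177452-89295759, plus strand) was 15.13 at 0 h, 15.08, 15.10, 15.17 and 15.72 with miR-CTR and, in the same order, 15.11, 15.10, 15.26 and 15.88 in the miR-16 libraries. It was flat within 0.13 of 0 h up to 24 h and was high only in the 48 h library of each mimic, at 0.59 ± 0.01 and 0.75 ± 0.01 above 0 h. Between the mimics the difference at 48 h was 0.16 ± 0.01, and the late difference of 0.125 was 0.038 after quantile normalization. That scaling gives equal values to genes of equal rank, and TYR was at rank 19 in both 48 h libraries.

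TYRP1 (ENSG00000107165.12, chr9:12685439-12710290, plus strand) went the other way. It was 17.88 at 0 h, 17.77, 17.75, 17.66 and 17.45 with miR-CTR and, in the same order, 17.84, 17.79, 17.72 and 17.49 in the miR-16 libraries. The 0 h library was the highest of the 9 and the pair of 48 h libraries the lowest, at -0.43 ± 0.01 and -0.39 ± 0.01 against 0 h, short of the threshold. Its share of all reads was 1.05% at 0 h and 0.767% with miR-CTR at 48 h. At each time TYRP1 was higher with miR-16 than with miR-CTR, by 0.04 to 0.07, but its early and late differences were 0 after quantile normalization, which gives equal values to genes of equal rank. Its exons overlap an antisense gene over 102 bases and those of TRPM1 another over 334 bases, neither of them in the table.

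DCT (ENSG00000080166.15, chr13:94436808-94479682, minus strand) had the steepest course of the family. It was 12.29 at 0 h, 12.40, 12.65, 13.20 and 14.38 with miR-CTR and, in the same order, 12.45, 12.59, 13.13 and 14.26 in the miR-16 libraries. The value was higher at every step with both mimics and was 4.26-fold its 0 h level with miR-CTR and 3.92-fold with miR-16 at 48 h. The late difference between the mimics was -0.095 ± 0.013, and -0.039 after quantile normalization. All members of the family except TYRP1 thus had their highest values at 48 h, and 97.7% of all genes had a smaller range over the 9 libraries than DCT.

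Of the melanosome maturation proteins, PMEL (ENSG00000185664.14, chr12:55954105-55973317, minus strand) showed the largest difference between the mimics. PMEL was 16.62 at 0 h, 16.55, 16.54, 16.67 and 17.22 with miR-CTR and, in the same order, 16.79, 16.59, 16.80 and 17.47 in the miR-16 libraries. It was higher with miR-16 at 4 of 4 times, with the smallest difference, 0.05 ± 0.01, at 12 h and the largest, 0.25 ± 0.01, at 48 h. The late difference of 0.19 is 1.14-fold. PMEL exons share 89 bases with CDK2 on the opposite strand, and the late difference of CDK2, a kinase gene also regulated by MITF, was -0.30.

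MLANA (ENSG00000120215.9, chr9:5890802-5910606, plus strand) was 14.01 at 0 h, 13.95, 14.00, 14.20 and 14.75 with miR-CTR and, in the same order, 14.04, 14.06, 14.27 and 14.88 in the miR-16 libraries. Like PMEL it was higher with miR-16 at 4 of 4 times, by 0.06 to 0.13, and high in both 48 h libraries. Its late difference between the mimics was 0.10 ± 0.01, and 0.054 after quantile normalization.

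GPR143 (ENSG00000101850.12, chrX:9725346-9786297, minus strand) encodes a receptor in the melanosome membrane. It was 11.64 at 0 h, 11.60, 11.63, 11.53 and 11.77 with miR-CTR and, in the same order, 11.60, 11.59, 11.64 and 11.82 in the miR-16 libraries. GPR143 was the steadiest of the 9 genes, with a range of 0.29 over all libraries, and its late difference was 0.08 ± 0.03.

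TRPM1 (ENSG00000134160.13, chr15:31001061-31161273, minus strand), a cation channel gene, was the least abundant and rested on 691 to 3586 reads. It was 9.49 at 0 h, 10.10, 10.06, 10.45 and 11.58 with miR-CTR and, in the same order, 10.01, 10.01, 10.34 and 11.72 in the miR-16 libraries. All 8 libraries after transfection were above 0 h, already by 0.61 ± 0.07 with miR-CTR and 0.52 ± 0.07 with miR-16 at 6 h. At 48 h it stood 4.26-fold and 4.69-fold above 0 h, and the difference between the mimics there was 0.14 ± 0.04. TRPM1 also hosts a miRNA gene, MIR211, which lies at chr15:31065095-31065116 in an intron of all 8 annotated TRPM1 transcripts that span it. Its mature form is shown with the seed in capitals, since it differs from that of miR-16, and its level was not measured in these polyA libraries.
miR-211-5p: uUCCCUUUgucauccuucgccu

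**Figure D3:**
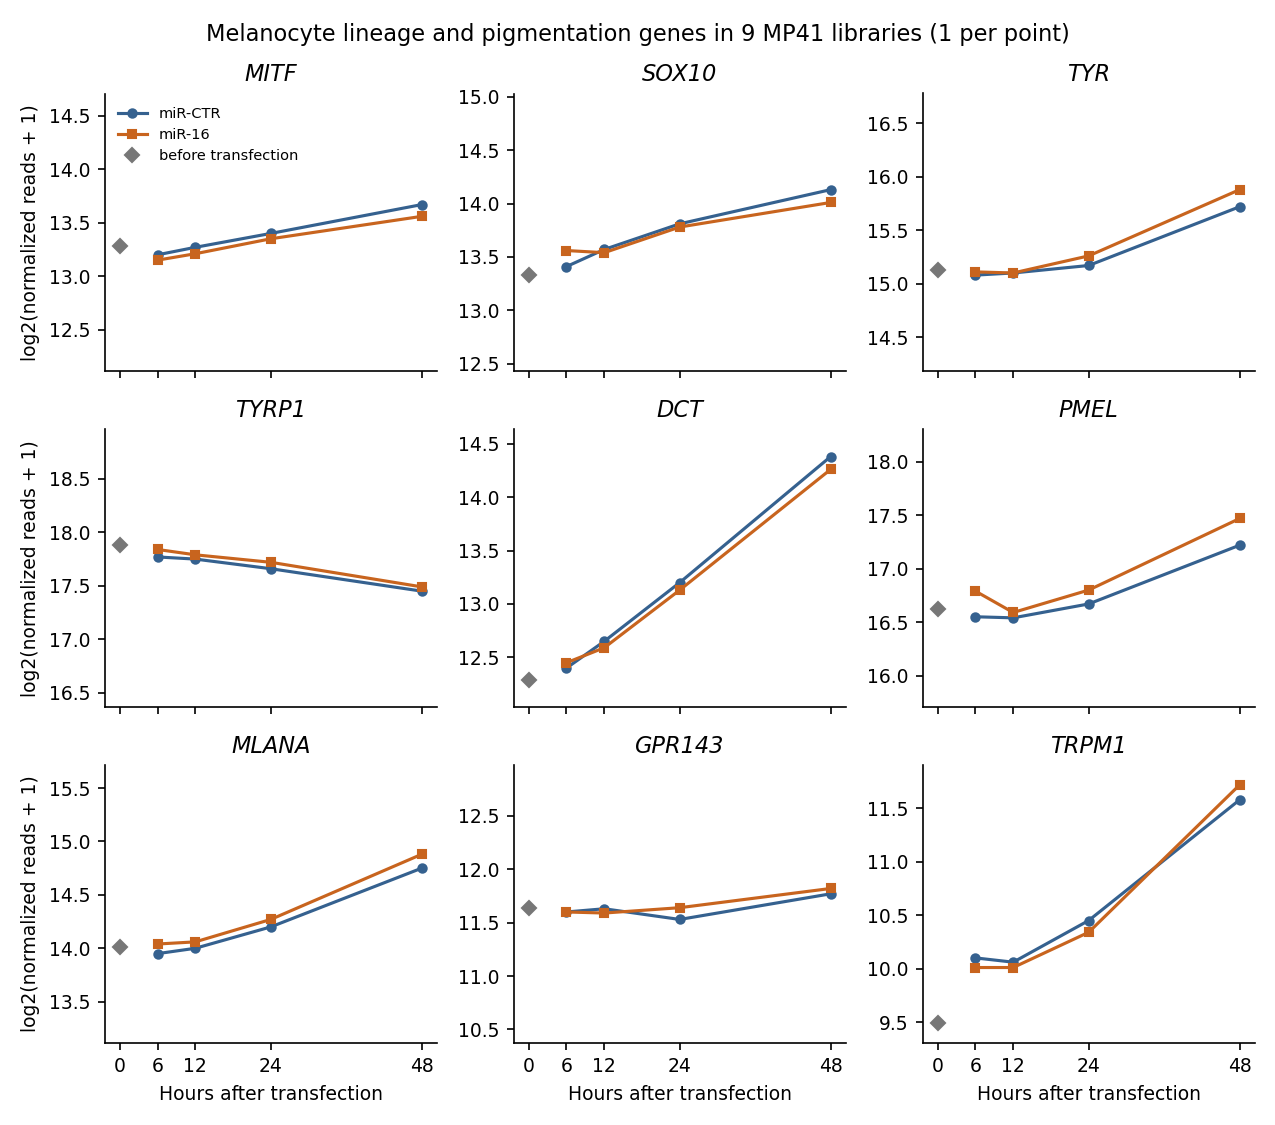
Values of the 9 genes, as log2(normalized reads + 1), against hours after transfection; circles are miR-CTR, squares miR-16 and diamonds the 0 h library, 1 library per point, with the same span on every vertical axis. DCT and TRPM1 climb most, TYRP1 goes from 17.88 to 17.45 and 17.49, and the lines of the mimics stay within 0.25 of each other.

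These genes differed more between times than between mimics. Both mimics are compared with the same 0 h library, so the values with each are given side by side. At 48 h, 6 of 9 genes were up past 0.5 with miR-CTR (15.5% of all genes) and 6 of 9 with miR-16 (18.4% of all genes): SOX10, TYR, DCT, PMEL, MLANA and TRPM1. For the late mean, 3 of 9 were up with miR-CTR, beside 11.0% of all genes, and 5 of 9 with miR-16, beside 14.1%. SOX10, DCT and TRPM1 passed with both. PMEL (0.515 with miR-16, 0.325 with miR-CTR) and MLANA (0.565 and 0.465) passed with miR-16 and not with miR-CTR, but their values differ between the mimics by no more than 0.19. After quantile normalization PMEL passed with neither mimic (0.213 with miR-16, 0.005 with miR-CTR) and MLANA with both (0.558 and 0.504). That scaling sets each value by rank, and PMEL held ranks 3 to 9 over the 9 libraries. None of the 9 genes was down past the threshold. The 0 h library was not transfected, so time and transfection cannot be told apart in these differences, and in bulk RNA neither can more cells of a type and more RNA per cell.

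The change from 6 to 48 h uses transfected libraries only, and the 2 mimics share none of them. Up past 0.5 with both mimics were 5 of 9 genes, beside 10.6% of all genes (1575 of 14839). DCT rose by 1.98 with miR-CTR and 1.81 with miR-16, and TRPM1 by 1.48 and 1.71. MLANA rose by 0.80 and 0.84, PMEL by 0.67 and 0.68, and TYR by 0.64 and 0.77. SOX10 passed with miR-CTR alone, at 0.72 against 0.45. MITF, at 0.47 and 0.41, and GPR143, at 0.17 and 0.22, stayed under the threshold, and TYRP1 was at -0.32 and -0.35. Much of the change came after 24 h: from 24 to 48 h DCT gained 1.18 and 1.13, TRPM1 1.13 and 1.38, and TYR 0.55 and 0.62.

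**Figure D4:**
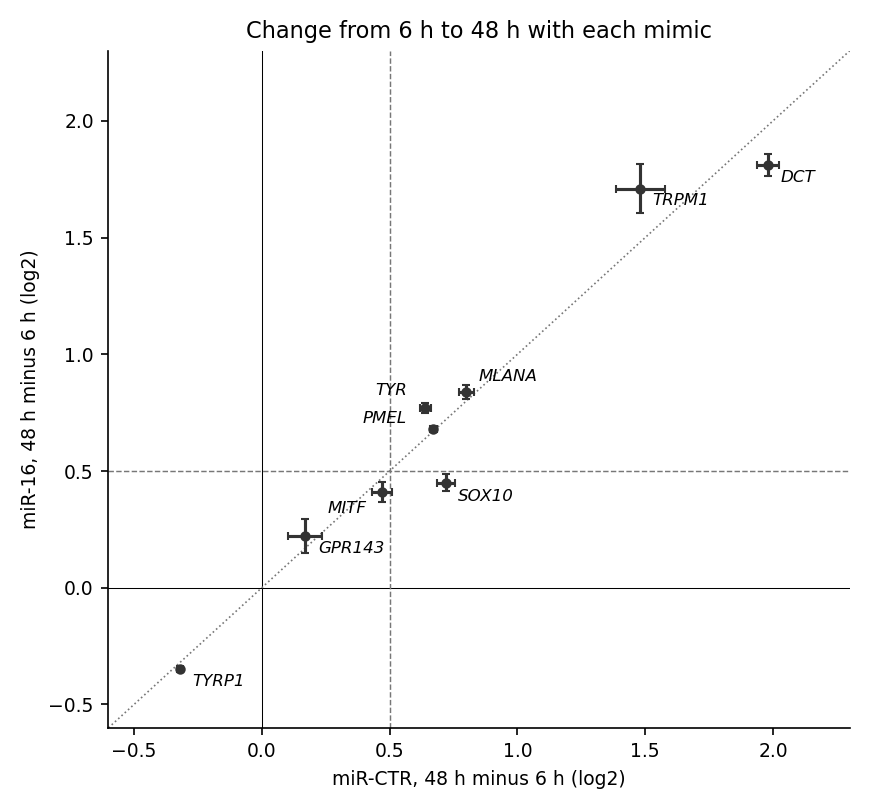
Change of each gene from 6 to 48 h in log2 units with miR-CTR (horizontal) and miR-16 (vertical), with 95% counting intervals; the dotted line marks equal change and dashed lines the 0.5 threshold. The 9 genes lie near the line, from TYRP1 at -0.32 and -0.35 to DCT at 1.98 and 1.81.

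Other marker genes moved over the same hours. The 4 Schwann cell markers summed to 9358 normalized reads at 0 h, 9548 to 20002 with miR-CTR and 9578 to 16380 with miR-16, and 4 of 4 were up past 0.5 late with each mimic, beside 11.0% of all genes with miR-CTR and 14.1% with miR-16. The 3 retinal pigment epithelium markers present summed to 399 at 0 h, 451 to 1064 with miR-CTR and 408 to 739 with miR-16. Late, 3 of 3 were up past 0.5 with miR-CTR and 2 of 3 with miR-16, beside the same shares. Of these markers RLBP1 (4.86 at 0 h) and LRAT (5.30) were low, and most of the 0 h sum was BEST1 (8.38). The counting SE of the late change with miR-CTR was 0.29 for RLBP1 and 0.25 for LRAT. The 5 dedifferentiation markers present summed to 8928 at 0 h, 5452 to 8471 with miR-CTR and 5811 to 7903 with miR-16. The sum was lowest at 48 h with each, and most of it was NES, at 12.91 at 0 h. The genes did not move alike. From 6 to 48 h NES (-0.73 with miR-CTR, -0.54 with miR-16) and JUN (-1.62, -1.29) fell. WNT5A (0.34, 0.27), TWIST1 (0.36, 0.93) and ZEB1 (0.84, 0.85) rose. Late against 0 h, 1 was up and 1 down past 0.5 with miR-CTR (11.0% and 9.79% of all genes). With miR-16, 0 were up and 2 down (14.1% and 11.7%). The part of these marker genes in the time courses above was not tested. RPE65 and TTR, of the same retinal pigment epithelium list, had no row.

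Across the 9 libraries, TYRP1 ran against the rest: its correlation with the mean of the other 8 genes was -0.97, while the other genes had 0.83 (GPR143) to 0.99 (MLANA). The non-member genes most like the mean course of the pigmentation genes, of 7411 with a mean at or above the median, were MAN2B1, a lysosomal mannosidase, PPARA, a nuclear receptor of fatty acid metabolism, EXOC3, an exocyst subunit, MYO1D, a myosin, and ZNF197, a zinc finger gene. Their correlations were 0.997, 0.997, 0.996, 0.995 and 0.992 over 9 libraries that share a time course, so they describe a common rise toward 48 h. MAN2B1, for example, was 10.79 at 0 h and 11.50 and 11.55 at 48 h with miR-CTR and miR-16.

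Some genes of the wider pathway differed more between the mimics than the 9 genes did. The lists were not matched to the 9 genes in level. Late, 6.82% of the 25% of genes with the highest mean expression passed 0.5, against 13.5% of all genes. Of 30 genes of melanosome biogenesis and transport, 0 were up and 6 were down past 0.5 late with miR-16 against miR-CTR, beside 7.76% and 5.73% of all genes, and their median was -0.06. MFSD12, which brings cysteine into melanosomes, had the largest late difference of the list at -1.185 ± 0.012, followed by TPCN2, an organelle cation channel, at -0.995 ± 0.034. MREG, which takes part in melanosome movement, was at -0.625 ± 0.044 and ATP7A, the copper pump that supplies tyrosinase, at -0.60 ± 0.04. Named beyond the rule because they passed too, SLC7A11, a cystine transporter of the cell surface, was at -0.585, and MYO5A, the motor of melanosome transport, at -0.505. MYO5A stood just past the threshold and lost it under other scalings, at -0.472 to -0.495.

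The course of these genes differed from that of TYR or DCT. TPCN2 was up against 0 h by 1.165 with miR-CTR and by 0.17 with miR-16 in the late mean, and MFSD12 was at 0.325 and -0.86. The transporters SLC45A2 and SLC24A5 had late differences of 0.215 and 0.43, and the Rab GTPases RAB27A, RAB38 and RAB32 of -0.04, 0.01 and 0.04, all under the threshold. These 5 were named after their values were seen.

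Of the 6, ATP7A and MYO5A had a miR-16 site in the 3′UTR and MFSD12, TPCN2, MREG and SLC7A11 had none; over the whole list 9 of 30 had one, beside 29.2% of all genes. Their 8mers are shown with the match in capitals, as the letters that no pigmentation gene of the 9 held.
ATP7A, match at chrX:78046857-78046864, plus strand: agattgctgaacTGCTGCTAaagt
ATP7A, match at chrX:78048341-78048348, plus strand: cagaagcaaagcTGCTGCTAaccc
MYO5A, match at chr15:52313057-52313064, minus strand: agcattttaaatTGCTGCTAcata
The second ATP7A match overlaps a 6mer that starts 2 bases before it.

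Of 14 lineage transcription factors 13 had values, with 2 up and 1 down late, beside 7.76% and 5.73% of all genes, and a median of -0.09. A miR-16 site stood in the 3′UTR of 7 of the 13, beside 29.2% of all genes. POU3F2, SOX9 and SOX6, which passed the threshold, had a site, and so did SOX5, TFAP2A, YY1 and IRF4, which did not pass. POU3F2 (BRN2), a factor of the undifferentiated state, was at 1.145 ± 0.097 and SOX9 at 1.035 ± 0.103. Against 0 h their late means were -1.24 and -0.645 in cells given miR-CTR, but -0.095 and 0.39 in those given miR-16. SOX6 was at -0.725 ± 0.034, and its site, a 7mer-m8, is shown with the match in capitals, at chr11:15967094-15967100 on the minus strand.
SOX6: actagtgtctatTGCTGCTttga
PAX3, which acts with SOX10 on MITF, was named after its value was seen and had a late difference of -0.09.

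Of 12 MITF targets outside pigmentation, 11 had values, with 0 up, 2 down and a median of -0.075. The shares of all genes past the threshold late, 7.76% up and 5.73% down, are the background for this list and for the receptors and dedifferentiation markers that follow. Of the 11 genes, 4 had a miR-16 site, beside 29.2% of all genes, SNAI2 of the 2 that were down among them. SNAI2, a zinc finger factor of melanoblast migration, was at -0.71 ± 0.05 and PPARGC1A, a coactivator of mitochondrial biogenesis, at -0.695 ± 0.040. The receptors MC1R, KIT and EDNRB had late differences of -0.03, -0.125 and -0.03, and ERBB3 one of 0.48, with 0 of 4 past the threshold. ERBB3 passed it at 0.511 after quantile normalization. Of 10 markers of dedifferentiated melanoma, 5 had values, and NGFR, AXL, EGFR, SOX2 and TNC had no row. JUN, an AP-1 subunit, was the 1 of the 5 past the threshold, at 0.62 ± 0.10.

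**Figure D5:**
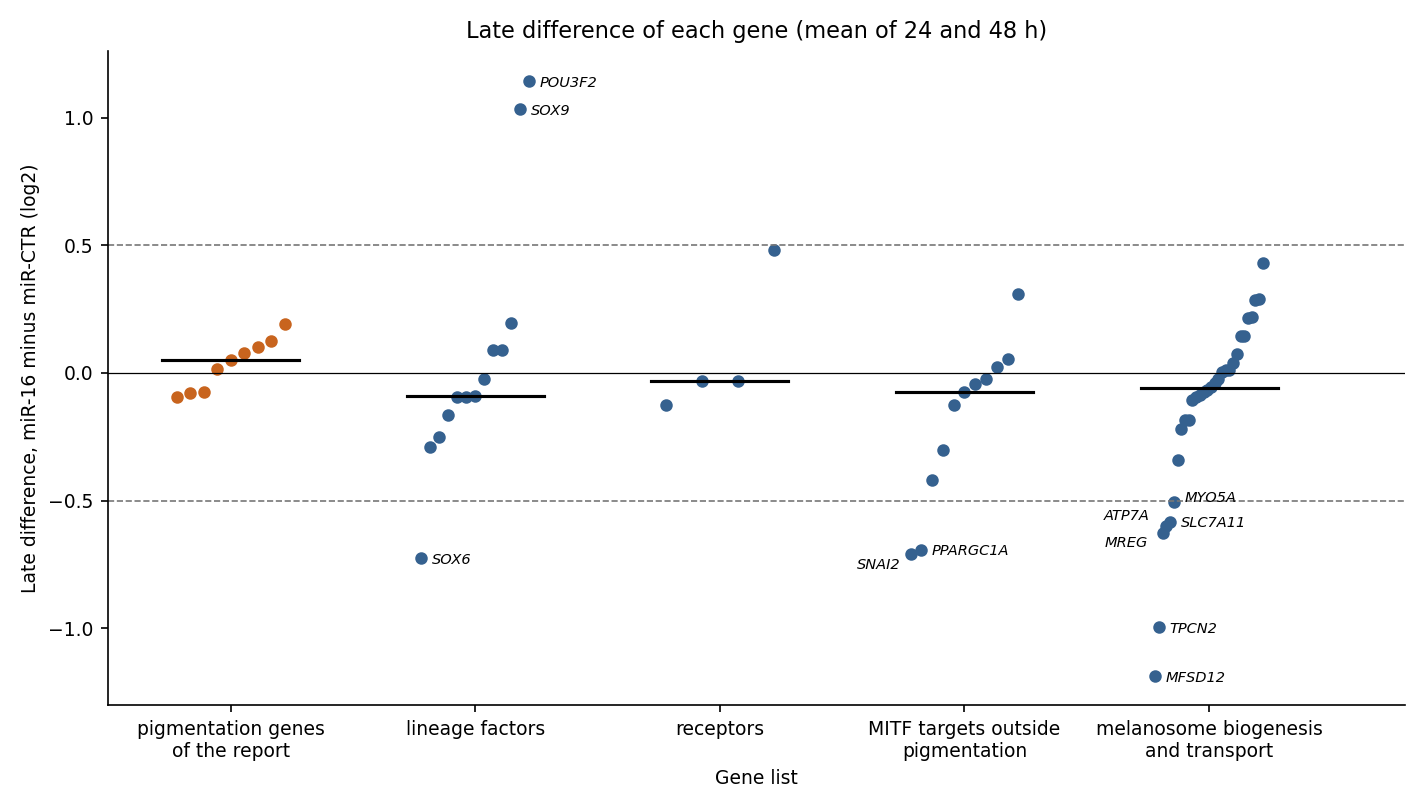
Late difference, miR-16 minus miR-CTR in log2 units, of every gene with a value in 5 lists, sorted within each list; black bars are list medians and dashed lines the 0.5 threshold. The 9 pigmentation genes lie within -0.095 to 0.19, while genes of the other lists reach 1.145 (POU3F2) and -1.185 (MFSD12).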

How the data were processed

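PolyA RNA of MP41 cells was sequenced in 9 libraries of 1 condition each. Per the submitters' processing notes the tools were FastQC, STAR 2.4.0a and featureCounts of Subread 1.5.0-p3, with build GRCh38. The annotation, the strand setting, the normalization and any filter on low genes are not given in the sources used here. The authors deposited 1 table of normalized log2 values with 2 decimals. In each library 100% of the low values, up to 5 on the log2 scale, were whole multiples of what 1 read is worth within rounding, after taking away a pseudocount of 1, so reads per library and counting errors were recovered from it, and these cover counting error only. The deposited values were otherwise kept as they are. Groups came from the labels. No test was run and no p-value is given: each condition had 1 library.

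A difference is miR-16 minus miR-CTR at the same time, averaged over 6 and 12 h (early) or 24 and 48 h (late), or a value minus 0 h or 6 h. The threshold of 0.5 is that of the study. The members, the gene lists and the tests were chosen with earlier results of these data known. Named were all members, of each pathway list up to 4 genes with the largest late difference past 0.5, the 5 genes of highest correlation with the members' mean, and the mimic response genes. Exon lengths and 3′UTRs are from GENCODE 29, in which 87.4% of the symbols matched 1 gene, and promoters and miRNAs from RefSeq. The scripts, in Python 3.11.15 with numpy 2.4.6 and pandas 2.3.3, were tested on simulated data. Alternatives were other scalings, a pseudocount of 8, a threshold of 1.5-fold, single times, another reference library and other site rules.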

Additional observations from a re-analysis of the deposited data

Results flagged for a closer look

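SOX10 had differences between the mimics on opposite sides of 0 at different times. The difference, miR-16 minus miR-CTR, was 0.15 at 6 h and -0.12 at 48 h in log2 units, and each 95% counting interval left out 0 on its own side (0.11 to 0.19 and -0.15 to -0.09). Whether the differences at 6 and 48 h differ from each other was not tested, since each rests on 1 library per mimic. No other gene of the 9 had intervals wholly on both sides of 0. No group had the 4 libraries that a search for a single library apart from its group needs.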

How the results depend on the processing

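The count of 0 of 9 genes past the threshold between the mimics held late and early under quantile normalization, centring on the median gene, equal library totals, a pseudocount of 8, a threshold of 1.5-fold and each single time. With the 0 h library as the reference in place of miR-CTR, the late count was 5 and the median 0.515. Against 0 h, results followed the time chosen: the median with miR-CTR was 0.12 at 24 h alone and 0.6 at 48 h alone, where 6 genes passed, and with miR-16 it was 0.18 at 24 h, where 2 genes passed, and 0.75 at 48 h. The miR-16 count of 5 fell to 2 at a threshold of 1.5-fold, since SOX10, PMEL and MLANA lay between 0.515 and 0.565, and the median was 0.343 after quantile normalization; the cause of the latter was not tested. With the 6 h library of the same mimic as reference, an alternative chosen after seeing the data, the miR-16 count was 3 and the median 0.345. Counting 6mers gave 3 genes with a miR-16 match and 1 (TRPM1) with a match to the other guide. Without the 25% of genes of lowest expression, 8.77% of all genes passed late in place of 13.5%. No scaling moved the median of all genes by over 0.1. TRPM1 was the gene whose late difference changed sign with the time chosen, -0.11 at 24 h and 0.14 at 48 h. Counting errors of the late differences were at most 0.034 for the 9 genes and larger for some less abundant list genes, such as SOX9 at 0.103; the spread between cultures was not measured.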
